A study of Mus musculus with 3 samples.

Results

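The genes described are 9 transcription factor genes of macrophages and the myeloid lineage, Spi1, Cebpa, Cebpb, Cebpd, Cebpe, Runx1, Maf, Klf4 and Elf1, out of 21887 protein-coding genes on the mouse autosomes and sex chromosomes. They were chosen by name, and every EZH2 interval and summit from 10 kb before to 10 kb after each gene was taken from the deposited tracks. That gave 6 of the 4651 LPS intervals and 12 of the 9643 NT intervals. The LPS group was bone marrow-derived macrophages of C57BL/6 mice given lipopolysaccharide, a bacterial cell wall component, for 2 h. The NT group was the same kind of culture without it. Both had been grown from femur and tibia marrow for 5 days with M-CSF, the growth factor that drives marrow cells towards macrophages. EZH2-bound DNA was sequenced after chromatin immunoprecipitation (ChIP-seq), with 1 library per group, so no difference between the groups could be tested or checked in a replicate. The remaining sample, input DNA of such macrophages, was in no comparison. ChIP-seq holds no RNA levels, so the cell type could not be checked against its marker genes.

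EZH2 is the enzyme of polycomb repressive complex 2, which methylates lysine 27 of histone H3 and is associated with gene silencing. In mammals the complex is found mainly at promoters rich in CpG dinucleotides. Myeloid cells acquire their identity through a small set of transcription factors. PU.1, encoded by Spi1, opens myeloid enhancers, C/EBP proteins act with it in granulocyte and macrophage genes, RUNX1 is needed for definitive blood formation, and MAF and KLF4 act in mature macrophages and monocytes.

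Each interval carries 1 summit, and its score is called the summit value here. It is a whole number whose unit, depth and scaling are not given in the sources used here. Over the whole series, LPS summit values ran from 7 to 100 with a median of 16, and NT values from 11 to 253 with a median of 27. Over the 4027 regions that both libraries shared, LPS values were at the median 0.5 times the NT ones. A lower LPS value or a missing LPS interval at a gene and a lower depth or other scaling of that library cannot be told apart, so each ratio is set beside that of the series. The stimulated track is named TLR in the file. It was taken as the LPS sample because LPS acts through a Toll-like receptor and no other EZH2 sample was stimulated, and every LPS value rests on this.

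The promoter positions show which start the intervals met at genes with more than 1 start. The promoter sequences show the CpG content of starts with and without an interval. Promoters of 300 bases, from 250 before to 50 after a gene start, were taken from RefSeq (GRCm38.p6, the assembly of mm10). The table held 7 promoters of 5 of the genes, and none was matched for Spi1, Cebpd, Cebpe and Maf. Both promoters of Runx1 and those of Elf1 (upstream), Cebpa and Cebpb are printed 5′ to 3′ in the direction of the gene with every CpG in capitals. The distal Runx1 promoter is at chr16:92826025-92826324 (minus strand), the proximal one at chr16:92697280-92697579 (minus strand), the upstream Elf1 promoter at chr14:79480944-79481243 (plus strand), the Cebpa promoter at chr7:35119043-35119342 (plus strand) and the Cebpb promoter at chr2:167688665-167688964 (plus strand).
Runx1 distal: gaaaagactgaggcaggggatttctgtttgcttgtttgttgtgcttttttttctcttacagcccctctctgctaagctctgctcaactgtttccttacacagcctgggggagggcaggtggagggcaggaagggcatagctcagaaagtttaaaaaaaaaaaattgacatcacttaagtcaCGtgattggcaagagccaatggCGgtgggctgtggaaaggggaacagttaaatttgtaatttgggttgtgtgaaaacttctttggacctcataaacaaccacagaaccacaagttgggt
Runx1 proximal: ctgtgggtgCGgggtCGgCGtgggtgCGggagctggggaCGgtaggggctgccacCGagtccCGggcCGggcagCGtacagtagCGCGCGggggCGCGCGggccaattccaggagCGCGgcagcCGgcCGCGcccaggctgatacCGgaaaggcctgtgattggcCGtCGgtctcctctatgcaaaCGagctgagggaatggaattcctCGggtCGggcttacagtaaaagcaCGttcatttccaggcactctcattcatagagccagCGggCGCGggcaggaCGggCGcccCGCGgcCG
Elf1 upstream: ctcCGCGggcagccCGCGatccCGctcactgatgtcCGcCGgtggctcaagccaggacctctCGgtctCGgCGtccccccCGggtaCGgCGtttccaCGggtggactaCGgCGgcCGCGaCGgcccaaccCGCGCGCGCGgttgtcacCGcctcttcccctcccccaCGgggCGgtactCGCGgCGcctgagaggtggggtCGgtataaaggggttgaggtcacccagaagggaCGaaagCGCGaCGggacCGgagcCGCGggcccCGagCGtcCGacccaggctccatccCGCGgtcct
Cebpa: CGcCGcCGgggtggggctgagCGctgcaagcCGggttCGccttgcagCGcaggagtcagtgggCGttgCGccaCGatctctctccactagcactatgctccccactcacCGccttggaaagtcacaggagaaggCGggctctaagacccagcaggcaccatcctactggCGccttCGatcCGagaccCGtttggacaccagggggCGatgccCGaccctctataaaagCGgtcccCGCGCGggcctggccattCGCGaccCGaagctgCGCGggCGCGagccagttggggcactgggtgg
Cebpb: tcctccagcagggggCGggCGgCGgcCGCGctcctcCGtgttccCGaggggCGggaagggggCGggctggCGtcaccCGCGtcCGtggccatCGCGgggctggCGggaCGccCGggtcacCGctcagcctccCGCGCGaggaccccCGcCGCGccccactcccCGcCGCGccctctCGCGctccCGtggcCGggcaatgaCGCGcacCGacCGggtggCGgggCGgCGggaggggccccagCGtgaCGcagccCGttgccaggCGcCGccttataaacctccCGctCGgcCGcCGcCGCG

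Runx1 had its intervals at 1 of its 2 promoters, in NT alone. RUNX1 is the DNA-binding subunit of core binding factor, and transcription of its gene starts from a distal and a proximal promoter. The gene spans 92601466 to 92826074 on chromosome 16 (mm10). No LPS interval was listed within 10 kb of the gene, and the nearest one lay 102 kb away with a value of 27. NT had an interval over the proximal start, from 92696648 to 92698911, with a summit value of 37 and the summit 335 bp upstream of the start. A second NT interval, from 92694994 to 92696040 with a value of 19, lay 607 bp further into the gene. The distal promoter met no interval of either library. It held 2 CpG and 45.0% GC, against 35 CpG and 69.0% GC in the proximal promoter.

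Elf1 showed the same division between its starts. It encodes an ETS family factor expressed in blood cells. Its upstream promoter held 43 CpG and met an NT interval, from 79480876 to 79482393 on chromosome 14, with a value of 52 and the summit 10 bp from the start. Its downstream promoter, at chr14:79515424-79515723 (plus strand), held 3 CpG and met no interval. The LPS interval at Elf1, from 79481583 to 79482160, had a value of 8, and 1.2% of all LPS intervals had values as low. It began 389 bp downstream of the upstream start, so the promoter itself met no LPS interval. The NT interval also held the start of Wbp4, which runs the other way from this site, and both intervals held the transfer RNA gene n-TEttc4. The signal can therefore not be assigned to Elf1 alone.

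Cebpb had the most CpG of the 7 promoters and no interval. It encodes C/EBPβ, a factor known to be induced by LPS. The promoter held 50 CpG and 80.7% GC, and 99.1% of 21263 promoters of protein-coding genes had as few or fewer CpG. No interval of either library lay within 10 kb of the gene. The nearest LPS interval was 359 kb away, with a value of 23, and the nearest NT interval 31.6 kb away, with a value of 20. Among 200 promoters within 2 CpG of that of Cebpb, 24% met an LPS interval and 51% an NT interval.

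**Figure D1:**
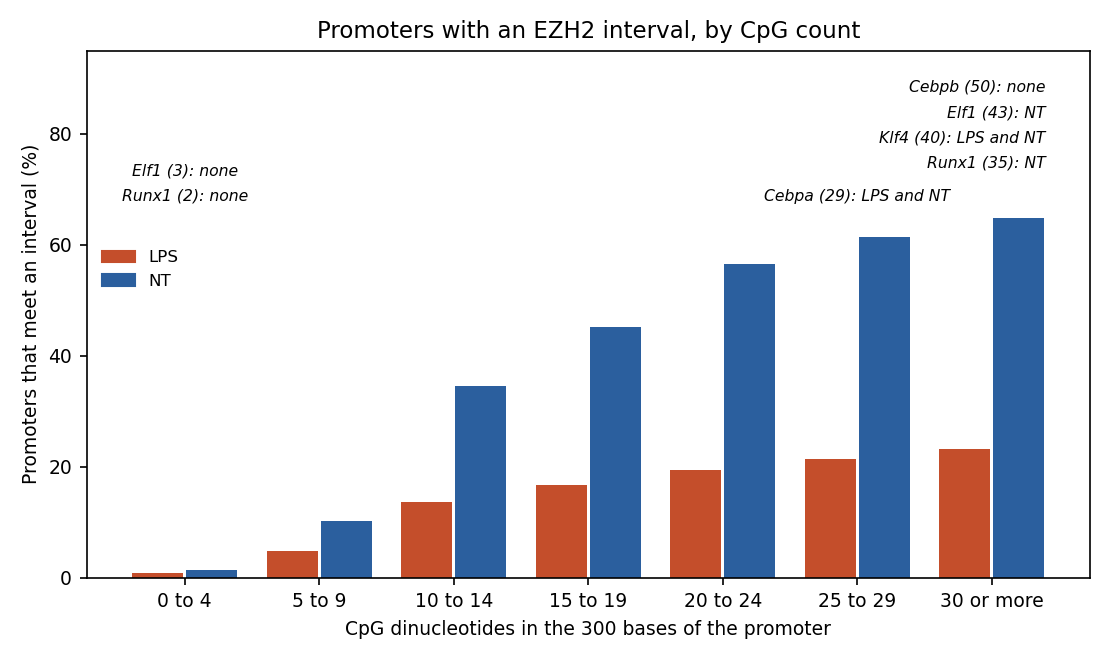
Share of promoters (in percent, vertical axis) that met an LPS interval (red) or an NT interval (blue), by the number of CpG in the 300 bases (horizontal axis). The 7 promoters of 5 myeloid factor genes are written above their bin with their CpG count and the libraries whose intervals they met, and the promoters with 2, 3 and 50 CpG met none.

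Over all promoters in the table, 11.9% met an LPS interval and 32.3% an NT interval. With 0 to 4 CpG these shares were 0.845% and 1.34% of 6035 promoters, and with 30 or more CpG they were 23.2% and 64.9% of 3283 promoters. The CpG bins were chosen after the values were seen. The plot of promoters by CpG count shows that the shares were higher in each bin with more CpG, in both libraries. The myeloid promoters with an interval, those of Cebpa with 29 CpG, Runx1 proximal with 35, Klf4 with 40 and Elf1 upstream with 43, were in the 2 highest bins. Cebpb was in the highest bin too. Within that open bin the NT share did not keep rising with CpG count. It was 68.3% of 663 promoters within 2 CpG of Klf4, 64.4% of 505 within 2 of Elf1 upstream and 51% of 200 within 2 of Cebpb. The LPS shares of these promoters were 24.7%, 21.2% and 24%.

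Short motifs of the factors themselves were searched on both strands of these promoters. The PU.1 core GAGGAA, found in 27.4% of all promoters, had 1 match in the proximal Runx1 promoter and none in the other 6. The RUNX motif TGTGGT, found in 15% of all promoters, had 2 matches in the distal Runx1 promoter and none in the other 6. The KLF motif GGGNGTGG, found in 19.4%, had 1 match in the Cebpb promoter alone among the 7. The palindromic C/EBP motif TTGCGCAA, found in 0.221%, had no match in any of the 7. These are letters found in the window and not sites of binding.

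**Figure D2:**
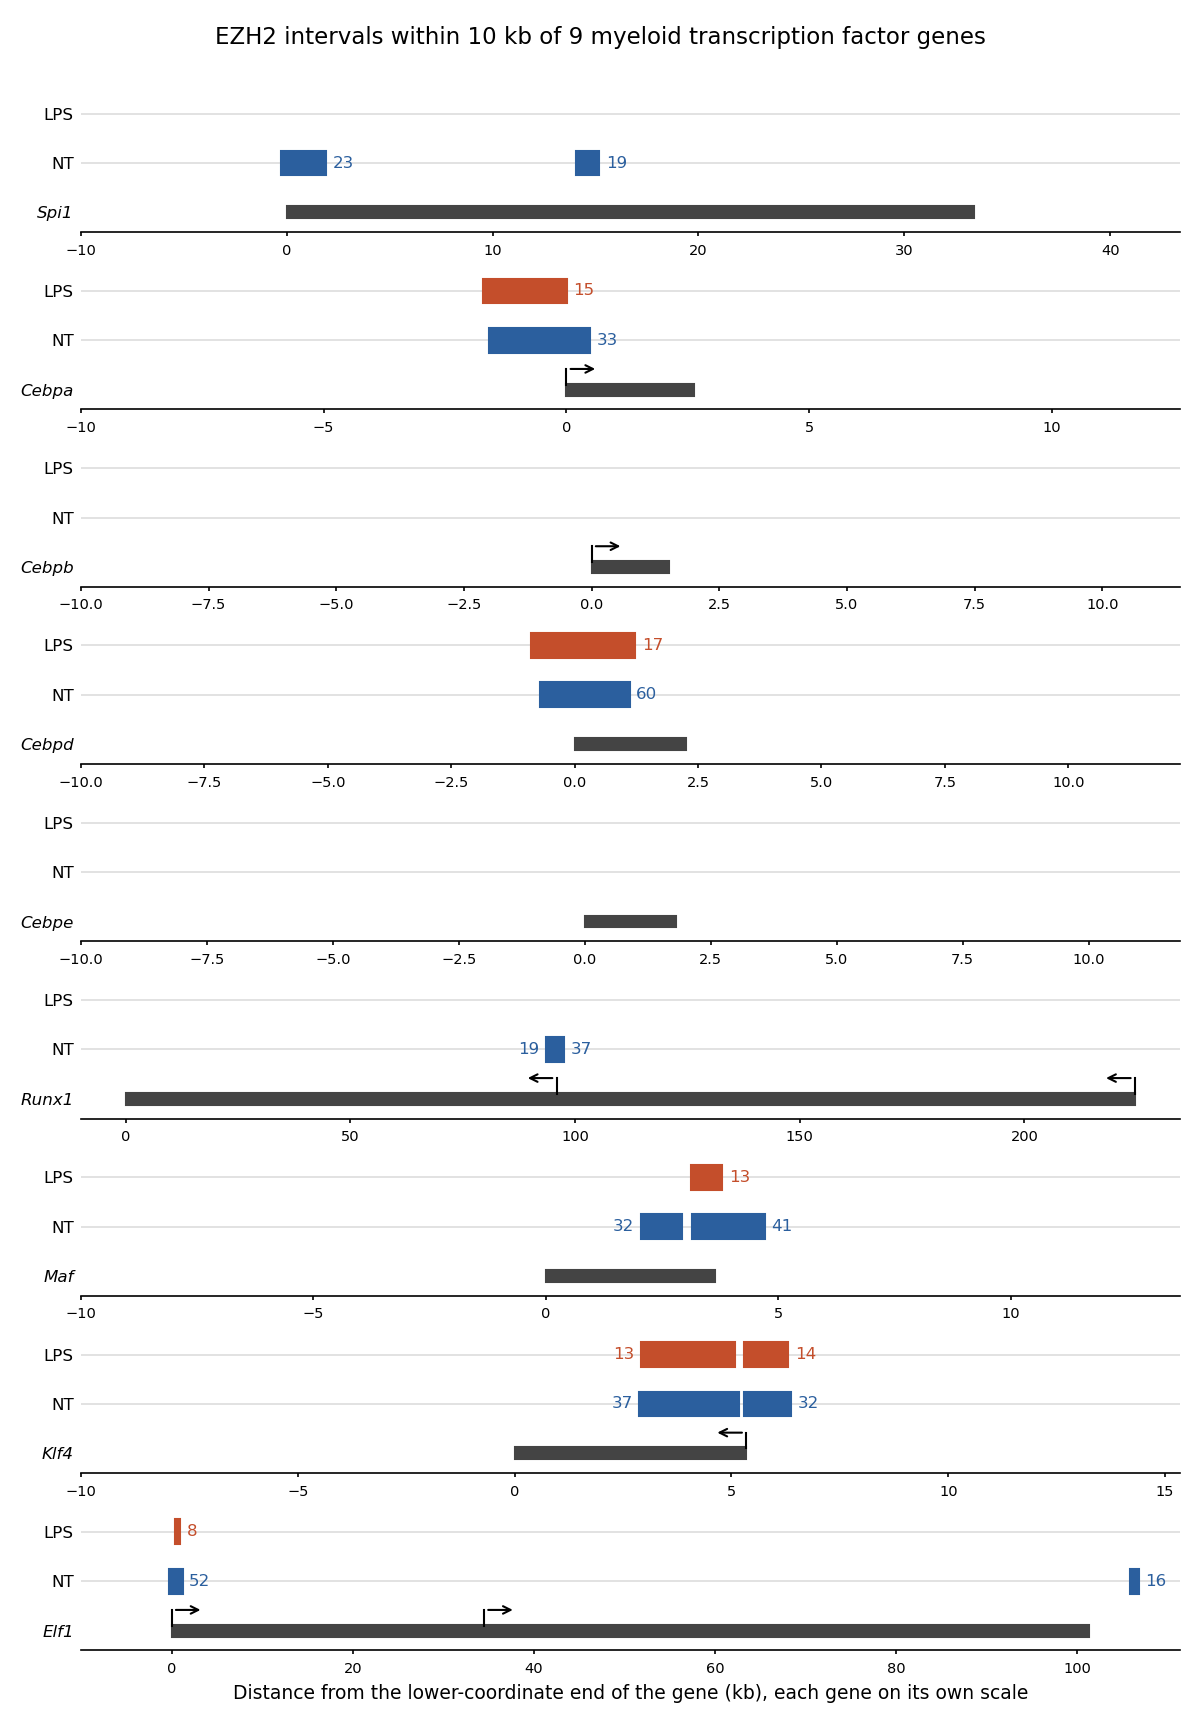
Intervals of LPS (red) and NT (blue) around each of the 9 genes (dark bars), with the distance from the lower-coordinate end of the gene in kb on the horizontal axis, a separate scale for each gene and the summit value beside each interval. Arrows mark the 7 starts with a promoter in the table and their direction; the gap of 607 bp between the Runx1 intervals is too narrow to see, and the rows of Cebpb and Cebpe hold no interval.

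Counted over the 9 genes, 5 had an LPS interval, where 21.2% of all protein-coding genes had one, and 7 had an NT interval, where 46% had one. Intervals of both libraries were found at Cebpa, Cebpd, Maf, Klf4 and Elf1, where 20.6% of all genes had both. NT alone had intervals at Spi1 and Runx1, where 25.4% of all genes had NT alone. LPS alone had none of the 9, where 0.635% of all genes had LPS alone. Cebpb and Cebpe had neither, as had 53.3% of all genes. Since these tracks were part of how the genes were chosen, the counts are a description. The share of genes with an interval differed between length classes, though not in step with length. It was lowest for the 927 genes of about the length of Cebpb, with 13.5% in LPS and 28.8% in NT. It was highest in LPS for the 836 genes of about the length of Runx1 (36.4%, with 58.6% in NT) and highest in NT for the 1953 of about the length of Elf1 (59%, with 26.9% in LPS). For genes of about the length of Spi1 it was 20.8% in LPS and 51.3% in NT, and for the shorter class of Maf 22.5% and 44.4%.

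Few intervals lay near the limit of the 10 kb window. The interval farthest from its gene was the second NT interval of Elf1, with a value of 16, which lay 4465 bp beyond the gene and held the start of the neighbouring gene Sugt1. The nearest interval left out was an NT interval of value 29 that lay 11.6 kb from Spi1. In the map of the genes all other intervals met the gene itself.

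Spi1, the gene of PU.1, had weak intervals in NT and none in LPS. The gene runs from 91082374 to 91115759 on chromosome 2. An NT interval from 91082094 to 91084274 covered its lower-coordinate end with a value of 23, and one from 91096436 to 91097545 lay inside the gene with a value of 19 and its summit 14554 bp from that end. Of all NT intervals, 37.5% and 19.2% had values as low as these. The nearest LPS interval lay 27.7 kb away at Psmc3, with a value of 19. The strand of Spi1, Cebpd, Cebpe and Maf was not used here, so their ends are given by coordinate.

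The 4 C/EBP genes differed among themselves. Cebpd, whose product is an early factor of the acute inflammatory response, had the highest NT value of the 9 genes. It had 17 in LPS, from 15886404 to 15888516 on chromosome 16, and 60 in NT, from 15886582 to 15888398. The LPS interval covered all of the NT one. It was 1.16 times as wide, and 91.3% of 4509 overlapping interval pairs of the series had a width ratio as low or lower. The summits lay 96 bp apart, 106 bp from the lower-coordinate end of the gene in LPS and 10 bp from it in NT. At Cebpd, a lower value in LPS therefore went with a wider interval.

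Cebpa, whose product is required for granulocyte and monocyte progenitors, had a value of 15 in LPS and 33 in NT. The LPS interval, from 35117566 to 35119298 on chromosome 7, ended 5 bp past the gene start, and the NT interval, from 35117700 to 35119778, ended 485 bp past it. The LPS summit lay 573 bp upstream of the start and the NT summit 35 bp downstream. The shift of 608 bp was as large or larger in 18.1% of the pairs of the series, where the median was 139 bp. Cebpe, which encodes the factor of late granulocyte maturation, had no interval. Its nearest LPS interval was 68.7 kb away, with a value of 14, and its nearest NT interval 23.2 kb away at Acin1, with a value of 39.

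Maf had 1 interval in LPS and 2 in NT. It encodes c-MAF, a bZIP factor of resident macrophages. At the higher-coordinate end of the gene, on chromosome 8, the LPS interval from 115706368 to 115707055 had a value of 13 and the NT interval from 115706390 to 115707970 a value of 41. The LPS interval was 688 bp wide, against 1581 bp in NT, and 10.4% of the pairs of the series had a width ratio as low. Inside the gene, NT listed an interval from 115705301 to 115706180 that had a value of 32 and no LPS partner.

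At Klf4 the layout was alike in both libraries. KLF4 is a zinc finger factor of monocyte differentiation and of pluripotent cells. One pair of intervals lay inside the gene on chromosome 4, with values of 13 in LPS and 37 in NT, and the other over its start, with values of 14 in LPS and 32 in NT. This second pair also met Gm12506, a long non-coding RNA gene. The pair over the start had the same lower edge in both libraries, at 55532416, which was 59 bp downstream of the start. The gap between the intervals was 188 bp in LPS and 110 bp in NT. The higher value was over the start in LPS, by 1 unit, and inside the gene in NT.

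**Figure D3:**
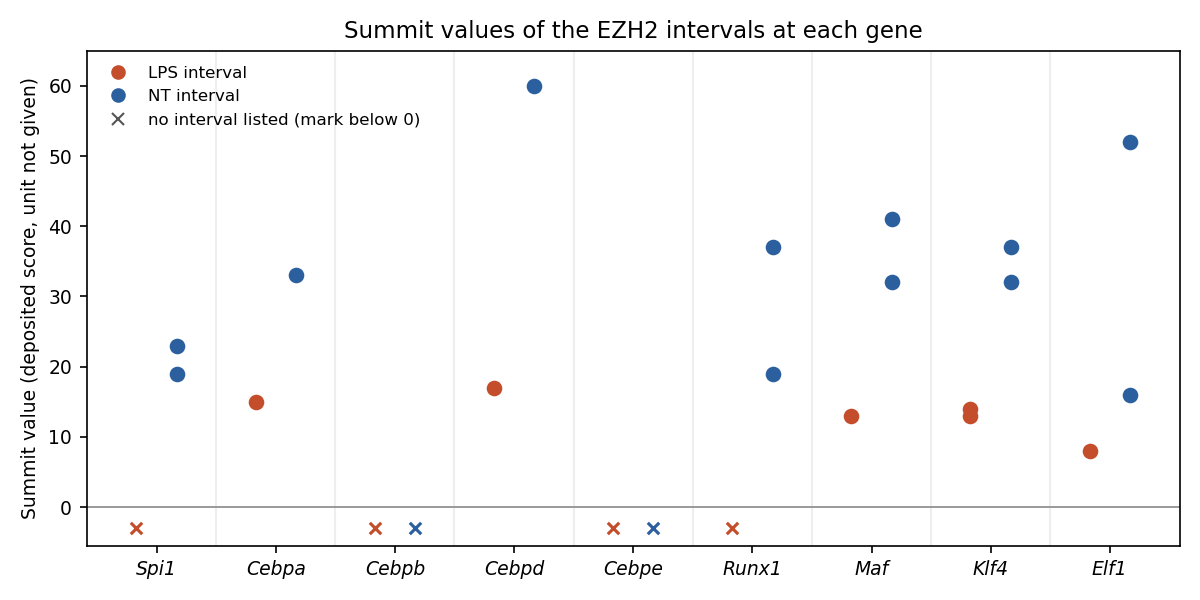
Summit values (vertical axis, deposited score of unknown unit) of each interval at the 9 genes, with LPS in red left of NT in blue; crosses mark genes with no interval in that library. The 6 LPS values lie between 8 and 17 and the 12 NT values between 16 and 60.

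The 6 LPS values at the 9 genes ran from 8 to 17, with a median of 13.5. The 12 NT values ran from 16 to 60, with a median of 32.5. Those of the 6 NT intervals with an LPS partner ran from 32 to 60. In the plot of summit values the full LPS and NT ranges overlap only between 16 and 17. Over the whole series, LPS values had a median of 16 and NT values one of 27. The LPS value was over the NT value in 11 of the 4027 shared regions. By the highest value at each gene the order in LPS was Cebpd (17), Cebpa (15), Klf4 (14), Maf (13) and Elf1 (8). In NT it was Cebpd (60), Elf1 (52), Maf (41), Klf4 and Runx1 (37 each), Cebpa (33) and Spi1 (23). Cebpd came first in both libraries, and Elf1 came last in LPS and second in NT. Without replicates it is not known which neighbours in these orders differ beyond their error.

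The ratio of the highest LPS to the highest NT value was under 0.5 at all 5 genes with intervals in both, where 52% of 4511 such genes of the series were under 0.5. It was 0.455 at Cebpa, 0.378 at Klf4, 0.317 at Maf, 0.283 at Cebpd and 0.154 at Elf1. At Klf4 the highest values lay in different intervals, over the start in LPS and inside the gene in NT. At Elf1 the summits lay 624 bp apart, and the NT summit was outside the LPS interval. The Elf1 LPS value of 8 was also close to 7, the lowest LPS value of the series. The median over the 5 was 0.317, beside 0.488 over all genes with both. Of those 4511 genes, 40.1% had a ratio as low as Cebpa, 19% as low as Klf4, 7.03% as low as Maf and 3.81% as low as Cebpd. For Elf1 it was 0.0665%, which are 3 genes, namely Elf1, its neighbour Wbp4 with the same intervals, and Kdelr3 with 15 in LPS and 99 in NT. The low ratio of Elf1 was known when the genes were chosen.

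Set beside interval pairs of like NT value, within 5 units, the order was Cebpa, Maf, Cebpd, Elf1 again. Of 1201 such pairs 46.7% had a ratio as low as that of Cebpa. For Maf it was 13.6% of 847 pairs, and for Cebpd 10.2% of 393 pairs. Of 533 pairs only the Elf1 pair itself (0.188%) was as low as Elf1. The low ratio of Elf1 was known when the genes were chosen, so its rank here is a description of the same values. The 2 pairs of Klf4 had ratios of 0.351 inside the gene and 0.438 over the start, with 19.3% of 1008 and 39.6% of 1253 like pairs as low. The median ratios of the like pairs ran from 0.455 for Elf1 to 0.473 for Cebpd. Over all 4509 pairs, 50.1% were under 0.5, and all 6 member pairs were. Of these pairs 53 (1.18%) had a ratio as low as Elf1, 6.03% as low as Cebpd and 9.25% as low as Maf. The Elf1 LPS interval was also narrow, 578 bp against 1518 bp in NT, and 7.81% of all pairs had a width ratio as low. It did not reach the NT summit, so the Elf1 ratio does not compare values at the same position.

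**Figure D4:**
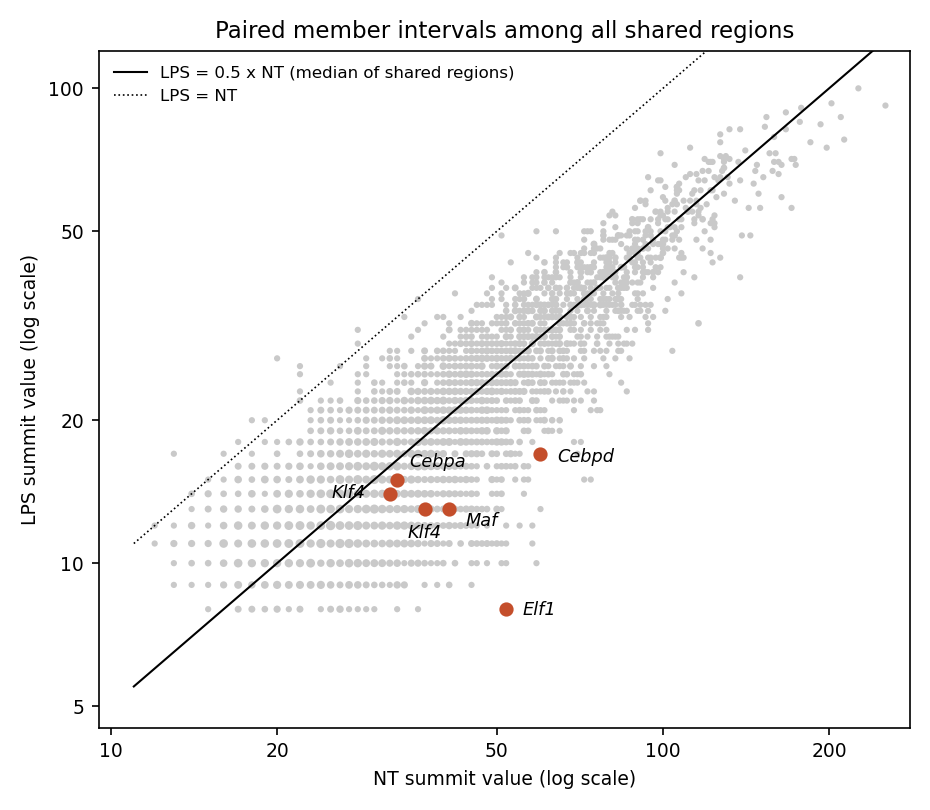
LPS summit value (vertical axis, log scale) against NT summit value (horizontal axis, log scale) for the 4027 shared regions (grey, larger points for more regions) and the 6 member pairs (red). The solid line is the median ratio of 0.5 and the dotted line equality; all 6 red points lie below the solid line, with Elf1 (8 in LPS, 52 in NT) farthest from it.

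All 6 LPS intervals met an NT interval, where 94.1% of LPS intervals of the series did. Of the 12 NT intervals 6 met an LPS interval, where 43.2% of the series did. The unpaired ones had values of 16 (Elf1, second interval), 19 and 23 (Spi1), 19 and 37 (Runx1) and 32 (Maf). Low NT intervals mostly had no LPS partner in the whole series. Of 4433 NT intervals within 5 of the value of 23 at Spi1, 26.1% had one (95% Wilson interval 24.9 to 27.4%, for counting error only). Of 439 that were also of about its width of 2181 bp, 56% had one (51.4 to 60.6%). For the narrower second Spi1 interval of 1110 bp these shares were 20.5% of 3923 and 16.5% of 1566.

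The proximal Runx1 interval was the highest unpaired one. Of 1642 NT intervals within 5 of its value of 37, 57.7% had an LPS partner (55.3 to 60.1%). Of 331 that were also of about its width of 2264 bp, 85.5% had one (81.3 to 88.9%). Klf4 had an NT interval of the same value and of 2296 bp, and that one had a partner. For the unpaired Maf interval of 880 bp, 45.2% of 2657 intervals of like value and 19.5% of 497 of like value and width had a partner. At the median ratio of the series, the Runx1 value of 37 would go with 18.5 in LPS, and 58.7% of LPS intervals were listed with values below that. That ratio comes only from regions with intervals in both libraries, so it may not hold for an unpaired interval. Why Runx1 had no LPS interval was not tested.

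**Figure D5:**
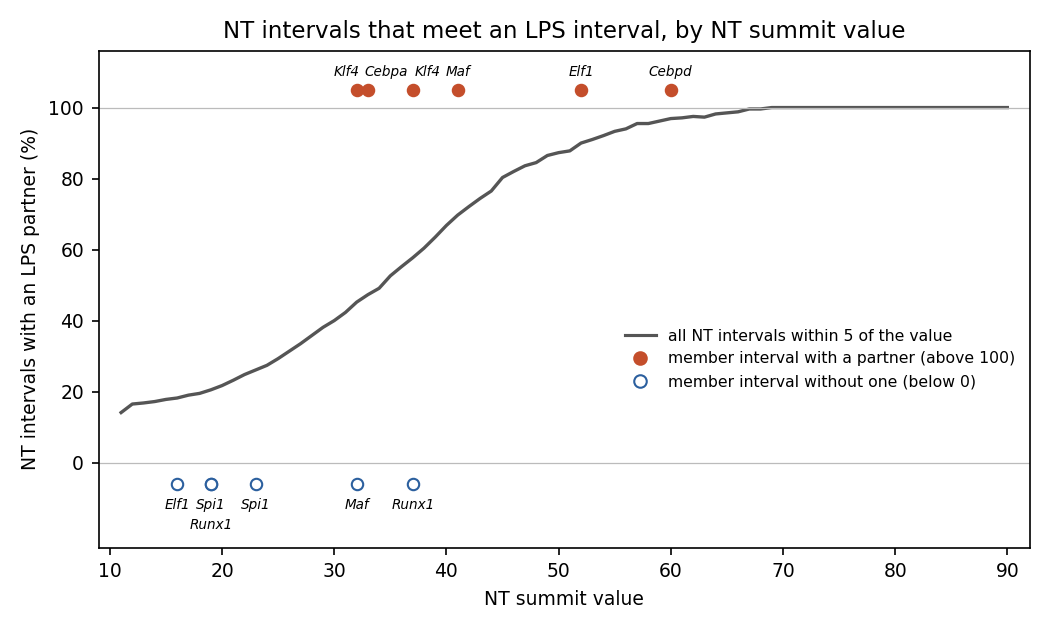
Percent of NT intervals that met an LPS interval (line, vertical axis) among all NT intervals within 5 of the summit value on the horizontal axis. The 12 member intervals are drawn at their NT value, the 6 with a partner above 100 and the 6 without one below 0; the unpaired Runx1 and Maf intervals at 37 and 32 lie where the line is at 57.7% and 45.2%.

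Most intervals had their summit near a start of the gene or, where the start was not known, near an annotated end. The summit lay within 1 kb of a start of the gene, or of either annotated end where no start was given, for 6 of 6 LPS intervals and 7 of 12 NT intervals. Over the series, 63.5% of LPS and 73.9% of NT summits lay within 1 kb of any protein-coding gene's start taken in the same way. For the member genes only the starts or ends of the gene itself counted, so the measures are unlike. The 5 NT exceptions were those inside Spi1, Runx1, Maf and Klf4, the last by its summit 1147 bp downstream of the start, and the one at Sugt1. The one at Sugt1 held the start of that gene and would count under the series rule.

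By the rule for likeness, the genes nearest to Elf1 in the pair of log2 values over the 2 libraries were the urokinase receptor gene Plaur (9 in LPS and 49 in NT, distance 0.19), Arsg and Slc16a6 (9 and 45 each, distance 0.269). The values of Cebpa, 15 and 33, were shared exactly by 22 other genes, predicted genes passed over, the first by name being Aph1a, Ascl5 and Atf3. With 2 libraries this likeness says only that the values are close.

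Genes of the same families also had intervals. Of 28 relatives, 14 had an LPS interval (50%), 19 an NT interval (67.9%), 13 both, 6 NT alone and 1 LPS alone. Among the highest was Mafa, a factor of pancreatic beta cells (73 in LPS and 160 in NT). Klf2 had 12 in LPS and 52 in NT, Runx3, active in T cells, 18 and 47, and Klf5 20 and 45. The gene in LPS alone was Cebpg, whose interval lay 7 bp from the gene with a value of 10. The lowest value of the series was 7 in LPS and 11 in NT, on scales that may differ. With the NT list shortened to the number of LPS intervals, 2 relatives were in NT alone and 3 in LPS alone. The median ratio over the 13 genes with both was 0.436, beside 0.488 over all genes.

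The second list held other transcription factor genes of myeloid cells. Of 34, 18 had an LPS interval (52.9%), 29 an NT interval (85.3%), 18 both, 11 NT alone and 0 LPS alone. The highest were Gata6, a factor of peritoneal macrophages (48 in LPS and 89 in NT), Gfi1, a repressor in granulocyte development (43 and 82), and Gata2, a factor of blood stem and mast cells (45 and 72). Junb and Meis1 had 25 and 67 each, and the Meis1 intervals with these values lay over 8 kb outside the gene. The median ratio over the 18 was 0.465. The highest values of both lists, which hold more genes, thus exceeded those of the 9 genes, where Cebpd had 17 and 60. The medians of the highest value per gene with an interval were closer. They were 14 in LPS and 37 in NT for the 9 genes, 15 and 32 for the relatives, and 15 and 37 for this second list.

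The last list held myeloid effector genes that these factors regulate. Of 40, 3 had an LPS interval (7.5%, where 21.2% of all genes had one) and 9 an NT interval (22.5%, where 46% had one), of which 3 had both, so that 6 had NT alone and 0 had LPS alone. The median ratio over the 3 was 0.493. The highest was the metalloproteinase gene Mmp9, with 35 in LPS and 71 in NT. Mertk, a receptor for the uptake of dying cells (36), Cyba, a subunit of the phagocyte oxidase (32), and Csf2ra, a GM-CSF receptor subunit (30), had NT intervals alone. Cd68 had 11 in LPS and 34 in NT, in intervals 5039 bp and 4698 bp outside the gene. The 31 other genes had no interval of either library within 10 kb. These shares describe the lists, and no test was made of their difference from all genes.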

How the data were processed

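EZH2 ChIP-seq of macrophages was analysed, with 1 LPS and 1 NT library. BWA, SICER and mm10 are named in the submitters' processing notes, without versions or roles. Intervals and summits were deposited by the authors per library in BED format; interval positions are printed 1-based, and summit positions as deposited. The deposited score of each summit is a whole number. Read depth, use of the input, scaling and thresholds are not given in the sources used here, so no counting error can be set on a summit value.

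Each interval was joined to its 1 summit, and overlap meant at least 1 bp. Gene positions and promoters came from RefSeq tables of GRCm38.p6 (mm10), matched by symbol. The promoter table covered 17492 protein-coding genes. Like length, value, width and CpG meant within 0.5 on the log2 scale, 5 units, 0.25 on the log2 scale and 2 CpG. The counting was tested on simulated intervals. Python 3.11.15, scipy 1.17.1 and matplotlib 3.10.9 were used.

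The genes and the 3 lists of related genes were chosen with earlier results of these data known. Named besides the 9 genes were, per list, up to 5 genes with the highest NT value and up to 3 in LPS alone, and the 3 genes nearest to the members with the lowest and highest ratio; 1 of them is not reported here. Neighbouring genes, and Kdelr3, were named after their values were seen. No test between conditions was possible. Alternatives changed the window, threshold, merging, ratio, overlap and reference point.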

Additional observations from a re-analysis of the deposited data

How the results depend on the processing

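No paired analysis was possible because there was 1 library per condition. Of 140 recomputed values, 115 stayed within 1.5 times the reported one or were equal, and 25 moved further. Stricter settings use fewer intervals by construction, and beyond that the cause was not tested. Where each library kept only intervals from its median value upwards, 1 LPS interval was left, at Cebpd, so that 1 gene had LPS and 1 had both, 5 had NT alone, and 1 interval of each library had a partner. With the NT list shortened to the number of LPS intervals, Spi1 had no NT interval left, and 1 of the 9 genes, Runx1, was in NT alone. So were 7 of the other transcription factor genes and 3 of the effector genes, while 5 effector genes had NT intervals. LPS alone then held 4 and 1 genes of these lists. Of the family members 2 were in NT alone and 3 in LPS alone, which turned the reported balance of 6 and 1. Over all genes that setting listed NT intervals at 5719, with 2088 in NT alone, and 1019 were in LPS alone. Within 2.5 kb of a start, 1 effector gene had an LPS interval. Divided by the median ratio of the series, the median of the 5 genes became 0.634. By the sum of values Maf had a ratio of 0.178. Windows of the gene body alone or with 2.5 or 5 kb, merging of intervals under 2 kb apart and an overlap of 0.5 of the shorter interval moved no count of the 9 genes by more than 1.5 times. The unknown depth limits every value of both libraries.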
